A study of Mus musculus with 6 samples.

Results

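The genes described here are 8 homeobox genes outside the Hox clusters, Dbx2, Barx1, Meox1, Meox2, Msx1, Msx2, Pitx1 and Six2. They were picked by name, from results of the wound against skin contrast in these same arrays, out of 22942 genes present on both array designs. That contrast is therefore a description for these genes and carries no test. All 8 have a probe in the scanner files, 6 have a row in the authors' deposited table (Barx1 and Pitx1 do not and were found through their RefSeq accessions), and 7 of 8 passed the filter on dim probes. Barx1 did not pass. Dbx2 and Pitx1 passed only through the wound arrays.

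All RNA came from transgenic mice in which the smooth muscle actin (SMA) promoter drives GFP. All cells were sorted as CD45- and CD31-, a gate meant to leave out leukocytes and endothelium. Skin cells are SMA-GFP+ cells with low reporter signal from dermis, labelled fibroblast-like (3 arrays). Wound cells are SMA-GFP+++ cells with high signal from wounds at 7 days after injury, labelled myofibroblast (3 arrays). Neither strain, age nor the number of animals is given in the sources used here, so p-values cover only how these arrays scatter, and that scatter may be technical. Reporter level and injury differ together between the groups and cannot be told apart, nor can fewer cells of a type be told from less RNA per cell.

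Homeobox genes encode transcription factors that bind DNA through a homeodomain. The Hox genes sit in clusters and mark position along the body, whereas the genes described here are dispersed and pattern smaller territories. Dbx2 marks a progenitor domain of the developing spinal cord, Pitx1 specifies hindlimb over forelimb, and Six2 keeps nephron progenitors undifferentiated and shapes the skull base. Meox1 and Meox2 act in somites and their derivatives, Msx1 and Msx2 are targets of BMP signalling in limb, tooth and skull, and Barx1 acts in stomach mesenchyme and teeth.

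Replicates 1 and 2 of each group were hybridised to array design 026655, and replicate 3 of each group, a name only, to design 028005. Between 64.4% and 72.6% of spots were well above background and 0 were saturated on each array. The number of arrays limits the precision. Acta2, the gene of the reporter's promoter, had a wound level 26.1-fold that of skin (log2 4.71, SE 0.16), which checks the labels. The fibroblast markers Pdgfra, Col1a1, Col1a2, Col3a1, Dcn and Lum were well above background on all arrays, and of these Pdgfra fell (log2 -1.30, SE 0.15, adjusted p = 0.00112) while the other 5 did not pass the threshold. Of 8 mural cell markers 7 rose, and of 10 keratinocyte markers 9 fell, where 18.5% of all tested genes rose and 15.6% fell.

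The genes divided into 3 with far more RNA in wound cells (Dbx2, Pitx1 and Six2), 4 that differed by 1.56-fold or less (Meox1, Meox2, Msx1 and Msx2) and 1 near background (Barx1). Within both array designs every wound array lay above every skin array for 4 of the 7 genes that passed the filter, Dbx2, Pitx1, Six2 and Meox1, an order that 31.9% of all 16686 tested genes had. Every wound array lay below every skin array for Msx2, as for 25.4% of all tested genes. For Msx1 the groups overlapped on design 026655. For Meox2 the wound arrays lay below the skin arrays on design 026655 and above on 028005. Of all tested genes, 57.3% had one or the other order, and 34.1% passed an adjusted p under 0.05. The contrast chose these genes, so nothing is read from the counts.

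To show what precedes the transcription start of genes with opposite directions, the 250 bases upstream are printed for Dbx2 and Six2, which were higher in wound cells, and for Msx2, which was lower. The RefSeq promoter table (build GRCm38.p6) matched 6 of the 8 genes, all but Meox1 and Pitx1. Each sequence runs 5′ to 3′ on the gene's strand, from chr15:95654772-95655021 (minus strand) for Dbx2, chr17:85688255-85688504 (minus strand) for Six2 and chr13:53472781-53473030 (minus strand) for Msx2. Capitals mark a match, on either strand, to one of 8 searched motifs.
Dbx2: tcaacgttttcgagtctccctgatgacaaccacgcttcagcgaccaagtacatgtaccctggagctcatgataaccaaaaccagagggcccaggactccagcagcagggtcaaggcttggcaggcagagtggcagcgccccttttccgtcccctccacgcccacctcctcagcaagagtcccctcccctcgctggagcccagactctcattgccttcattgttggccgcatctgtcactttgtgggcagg
Six2: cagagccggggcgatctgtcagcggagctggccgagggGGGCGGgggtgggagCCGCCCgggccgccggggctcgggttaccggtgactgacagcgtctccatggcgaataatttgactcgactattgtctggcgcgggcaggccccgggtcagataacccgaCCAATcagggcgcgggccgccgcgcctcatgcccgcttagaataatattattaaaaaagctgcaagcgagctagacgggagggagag
Msx2: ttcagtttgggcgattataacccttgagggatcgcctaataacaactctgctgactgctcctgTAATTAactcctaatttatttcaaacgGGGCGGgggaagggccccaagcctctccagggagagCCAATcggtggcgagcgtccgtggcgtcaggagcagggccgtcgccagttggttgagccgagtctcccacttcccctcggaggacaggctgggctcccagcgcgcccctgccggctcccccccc
The search used TAATTA, a core bound by many homeodomains, then CCAAT of the nuclear factor Y type, then TATAAA of the basal promoter, the Sp1 box GGGCGG, the E-box CAGCTG, the AP-1 site TGANTCA, the TEAD site GGAATG and the CArG box of serum response factor. TAATTA and the E-box read the same on both strands, and matches were not masked against each other. The Dbx2 window held none of the 8. The Six2 window held CCAAT, 87 to 83 bases before the start, and GGGCGG on each strand. The Msx2 window held TAATTA, 187 to 182 bases before the start, and CCAAT and GGGCGG. Of the windows not printed, Meox2 held TATAAA on the opposite strand, 29 to 24 bases before the start, Msx1 held CCAAT on each strand, and Barx1 held GGGCGG 8 times. Among 32851 promoter windows of the same length, TAATTA was in 4.84%, CCAAT in 33.85%, TATAAA in 12.4%, GGGCGG in 32.7%, CAGCTG in 13.0%, TGANTCA in 6.75%, GGAATG in 12.6% and the CArG box in 1.47%. The 6 windows had 58.8% to 85.6% G and C, all above the median window (52.4%). A match is a description of letters, not of a bound site.

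Dbx2 was at or near background in skin cells and bright in wound cells. The processed signal is the scanner's background-subtracted intensity before scaling between arrays, and it is given in the order of replicates 1, 2 and 3. For Dbx2 it was 10.9, 5.24 and 22.4 in skin and 1459, 1040 and 1484 in wound cells. Every wound array was far above every skin array, and only skin replicate 3 was well above background. On the scaled log2 level, which is the log2 signal minus the 75th percentile of the array's probes, skin arrays stood at -6.02, -7.17 and -4.36 and wound arrays at 0.95, 0.75 and 1.51, so Dbx2 lay above the 75th percentile on every wound array and far below it on every skin array. The difference, wound minus skin, was 6.92 on the log2 scale (SE 0.42), or 121-fold, a size that rests in part on the 2 skin arrays where the probe was not well above background. On design 028005, where both groups were measured above background, it was 5.87, or 58.4-fold, against 7.45 on design 026655. The authors' deposited table, in which each gene was taken as centred within an array design, gave 6.86. Normexp background correction, which adds an offset of 50 to each signal and draws dim signals together, gave 3.95.

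Pitx1, the hindlimb selector, showed the same pattern at lower signal. Its processed signal was 12.9, 3.63 and 2.31 on the skin arrays, of which only replicate 1 was well above background, and 200, 94.3 and 214 on the wound arrays. All wound arrays were above all skin arrays, by 4.43 on design 026655 and 6.35 on design 028005 on the log2 scale. The overall difference was 5.07 (SE 0.62), or 33.6-fold, but its size rests on skin signals that were mostly at background. Under normexp it was 1.78. Tbx4, the T-box gene that acts with Pitx1 in the hindlimb, was not called (log2 0.76, SE 0.36, adjusted p = 0.159), with 1.23 on design 026655 and -0.17 on 028005.

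**Figure D1:**
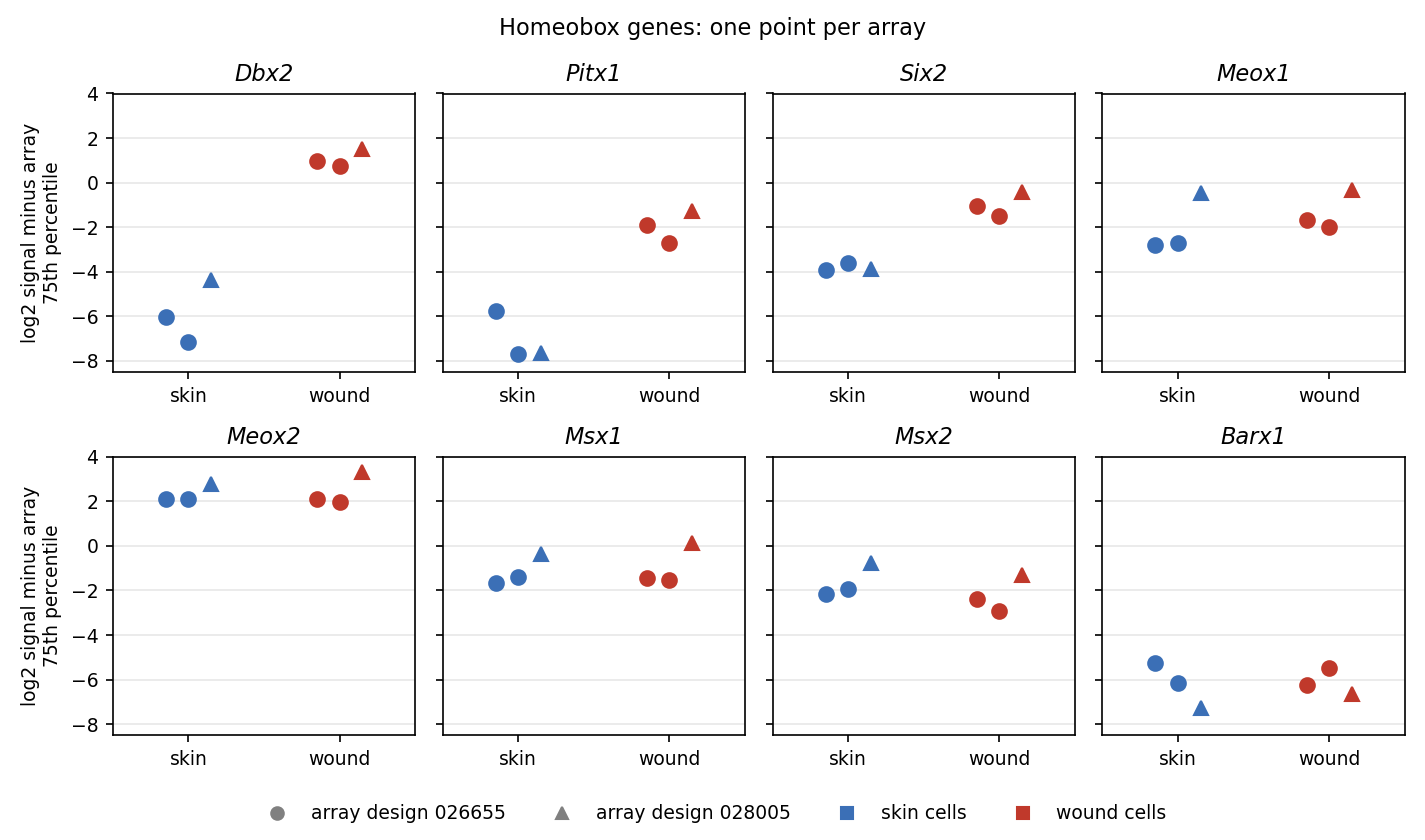
Level of each gene on every array (log2 signal minus the array's 75th percentile; circles, design 026655; triangles, design 028005; blue, skin; red, wound). Dbx2, Pitx1 and Six2 are higher on all wound arrays, Msx1 overlaps on design 026655 and Msx2 is lower within each design. Meox2 is lower in wound cells on 026655 and higher on 028005, and Barx1 stays near the bottom. Levels are compared within a design.

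Six2 was measured on every array and was brighter on each wound array. The processed signal of its brightest probe was 46.1, 62.6 and 30.9 on the skin arrays and 359, 218 and 387 on the wound arrays, with no overlap. The log2 difference was 2.81 (SE 0.26), or 7.02-fold, with 2.48 on design 026655 and 3.47 on 028005. Six2 is the only one of the 8 genes with more than 1 named probe on the arrays. Its second probe, to the same transcript, was well above background on the 3 wound arrays (21.9, 18.6 and 27.9) and on no skin array (10.1, 3.35 and 2.43), which bounds the change at least 1.75-fold higher. For that bound each skin array was given the dimmest signal still well above background there, unless the probe itself was brighter. The third probe, to the cDNA AK142139, was well above background on no array. It was higher in wound cells on design 026655 and lower on 028005. The mean of all 3 probes gave 1.84, and normexp gave 1.68. The authors' deposited table gave 1.72 on design 026655 and 3.47 on design 028005. The latter is the difference of the brightest probe there, whose value on 026655 was 2.48.

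**Figure D2:**
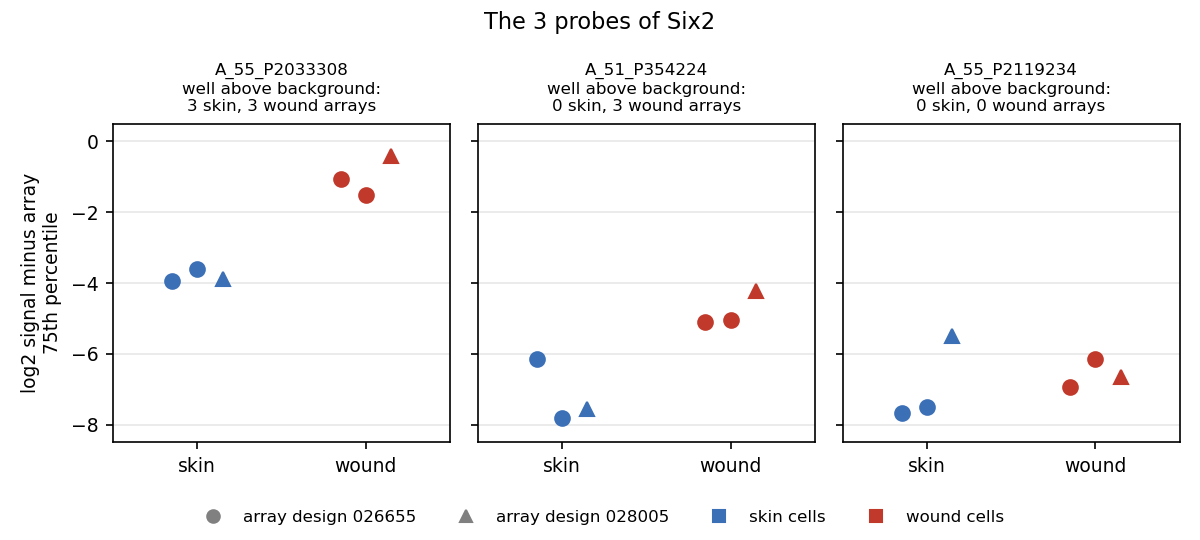
Level of the 3 Six2 probes on every array (log2 signal minus the array's 75th percentile). The 2 probes to the RefSeq transcript are higher on all wound arrays. The third, above background on no array, is higher in wound cells on design 026655 and lower on 028005.

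Meox1 and Meox2, paralogues that pattern the somites, each had a measured level on every array. The processed signal of Meox1 was 103, 117 and 338 on the skin arrays and 238, 156 and 407 on the wound arrays, and every wound array was above the skin arrays of its design. The log2 difference was 0.64 (SE 0.22), or 1.56-fold, made up of 0.91 on design 026655 and 0.09 on 028005. The processed signal of Meox2 was 3045, 3276 and 3161 on the skin arrays and 3193, 2390 and 5154 on the wound arrays, bright on all of them. On the scaled level its wound arrays lay below its skin arrays on design 026655 and above on 028005. Its log2 difference was 0.11 (SE 0.18), with -0.09 on 026655 and 0.52 on 028005. It was above 0 under 13 of 17 alternatives, which hold the fit of design 026655 alone more than once.

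Msx1 and Msx2, the BMP targets, were measured on every array. The processed signal of Msx1 was 223, 289 and 356 on the skin arrays and 276, 211 and 578 on the wound arrays, which overlap. Its log2 difference was 0.19 (SE 0.18), with 0.03 on design 026655 and 0.52 on 028005. Msx2 had 157, 200.2 and 271 on the skin arrays and 146, 80.9 and 210 on the wound arrays, lower in wound cells within each design. Its log2 difference was -0.59 (SE 0.20), or 1.501-fold lower, with -0.60 on 026655 and -0.55 on 028005. Of 10 tested genes of a list of BMP response genes, 3 fell at an adjusted p under 0.05, as did 15.6% of all tested genes, and the other 7 were not called. Those that fell were Id1 (log2 -1.20, SE 0.15, adjusted p = 0.00152) and Id2 (log2 -0.84, SE 0.18, adjusted p = 0.0137), inhibitors of basic helix-loop-helix factors, and the BMP receptor Smad Smad9 (log2 -1.26, SE 0.24, adjusted p = 0.00892). Id2 lost its call without skin replicate 1 or 2, and Smad9 under normexp. Smad9 was measured on 2 of 3 wound arrays, and its difference was as small as -0.30 among the alternatives. The list's median was -0.53, against 0.045 over all tested genes.

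Barx1 gave no usable level. Its processed signal was 18.7, 10.65 and 3.00 on the skin arrays and 10.1, 14.0 and 5.20 on the wound arrays. Only skin replicate 1 was well above background, and the groups overlapped, so no difference was detectable at this signal.

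**Figure D3:**
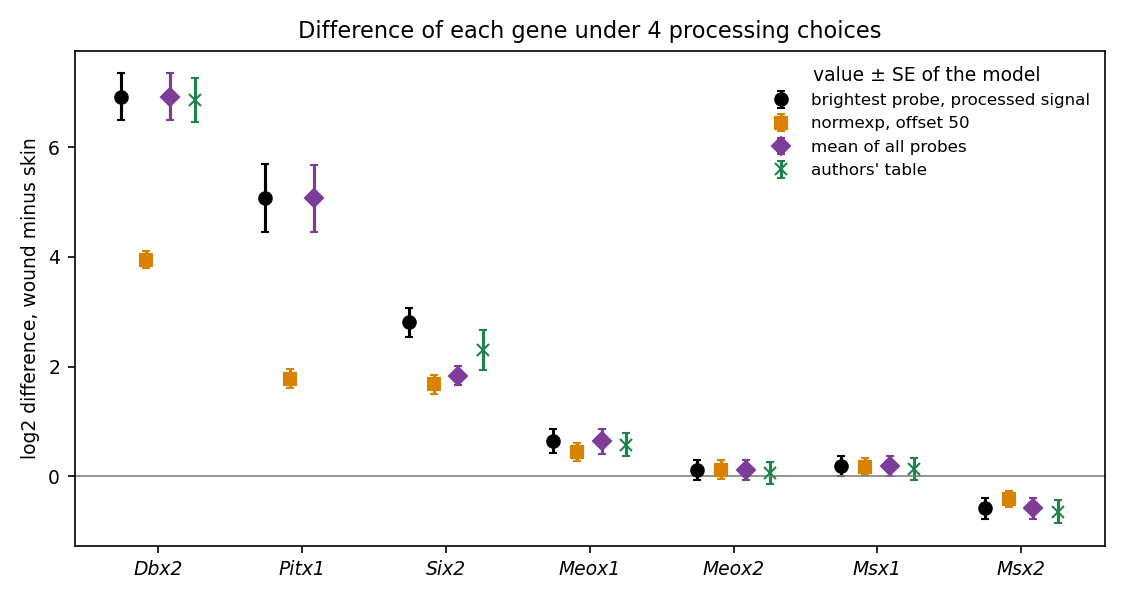
Log2 difference, wound minus skin, of the 7 genes that passed the filter under 4 ways of processing (points, estimate; bars, SE of the model on 3 arrays per group; Pitx1 has no row in the authors' table). Dbx2, Pitx1 and Six2 stay above 0 and shrink under normexp, Meox2 and Msx1 stay close to 0, and Msx2 stays below 0.

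A distance between genes was taken as the root mean square difference over the 6 arrays of log2 values centred on each array design, and compared with 15797 other tested genes that have a symbol. It was computed for the 5 members measured on all arrays. The genes nearest to Six2 were Ube2ql1 (0.13) and Oit3 (0.13), and only 3 genes lay within 0.15 of it. The nearest to Msx2 were Sc5d (0.020) and Exosc3 (0.039), to Meox1 Efhd1 (0.053), to Meox2 Ccne1 (0.028) and Sec24d (0.030), and to Msx1 Ulk1 (0.014) and Atf7ip (0.019). Within 0.15 of Msx1 lay 1114 genes. Among the members themselves the closest were Msx1 and Meox2 (0.092).

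Among relatives of these genes, calls were made at an adjusted p under 0.05, the threshold used throughout. Six4, which acts in muscle progenitors, rose 7.23-fold (log2 2.85, SE 0.15, adjusted p = 0.000102). Its processed signal was 46.6, 54.9 and 42.7 on the skin arrays and 351, 289 and 400 on the wound arrays, with no overlap. No call was made for Six3 (log2 -0.14, SE 0.25, adjusted p = 0.698) or Six5 (log2 -0.25, SE 0.15, adjusted p = 0.245), and Six6 was above background on no array.

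Dbx1, the paralogue of Dbx2, fell in wound cells. Its processed signal was 33.0, 48.9 and 52.2 on the skin arrays and 4.32, 13.3 and 10.9 on the wound arrays, none of the latter well above background. With the main processing it was at least 2.86-fold lower in wound cells (adjusted p = 0.0113). The log2 difference of Dbx1 was as small as -0.55 among the alternatives. Pitx3, a paralogue of Pitx1, was not called (log2 -0.14, SE 0.17, adjusted p = 0.561). Msx3 fell (log2 -1.41, SE 0.27, adjusted p = 0.00871) and was measured on 2 of 3 wound arrays. Barx2 was not called (log2 0.34, SE 0.28, adjusted p = 0.394).

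The Eya coactivators and Dach cofactors are partners of Six2 and its relatives. Of the 4 Eya genes tested, Eya2 fell (log2 -2.65, SE 0.28, adjusted p = 0.000924) and Eya4 rose (log2 0.57, SE 0.17, adjusted p = 0.0447), the latter losing its call under 13 of 17 alternatives. Eya1 (log2 -0.30, SE 0.21, adjusted p = 0.313) and Eya3 (log2 0.12, SE 0.23, adjusted p = 0.719) were not called. Dach1 and Dach2 did not pass the filter on dim probes.

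Over all other non-Hox homeobox genes listed, 165 in number, 99 were tested, of which 17 rose (17.2%, against 18.5% of all tested genes) and 28 fell (28.3%, against 15.6%). Their median difference was -0.0043, against 0.045 over all tested genes, and their median size without sign was 0.62 against 0.42. The count of genes that rose was 11 without skin replicate 1, 11 without skin replicate 2 and 10 without wound replicate 2, and that of genes that fell was 18 without skin replicate 1. With only genes measured on all 6 arrays, 78 in number, 18 fell, against 2194 of 15014 among all genes so measured.

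TALE class genes, which include the Pbx and Meis cofactors of other homeodomain proteins and the Irx genes, had 3 of 18 higher and 7 lower. These were 16.7% and 38.9%, against 18.5% and 15.6% of all tested genes. Irx6 (log2 -4.66, SE 0.34, adjusted p = 0.000251), Irx2 (log2 -3.26, SE 0.21, adjusted p = 0.000158) and Irx1 (log2 -2.47, SE 0.18, adjusted p = 0.00024) fell, as did Mkx, a regulator of tendon (log2 -2.52, SE 0.16, adjusted p = 0.000172). Irx6 was measured on 2 of 3 wound arrays and stood at -2.81 under normexp. Pbx3 rose (log2 1.28, SE 0.16, adjusted p = 0.00186), as did Pknox2 (log2 0.92, SE 0.20, adjusted p = 0.0163) and Meis3 (log2 0.86, SE 0.23, adjusted p = 0.0333, on 1 of 3 probes). Pknox2 lost its call without wound replicate 1 or 2, and Meis3 under 11 of 17 alternatives.

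Among PRD class genes 2 of 12 rose (16.7%, against 18.5% of all tested genes) and 4 fell (33.3%, against 15.6%). Phox2a, a factor of autonomic neurons, rose (log2 2.35, SE 0.17, adjusted p = 0.000246). Pax7, the satellite cell factor, was at least 3.32-fold lower with the main processing (adjusted p = 0.00153) and above background on no wound array. Its log2 difference was as small as -0.61 among the alternatives. Rax (log2 -1.77, SE 0.20, adjusted p = 0.00107), Shox2 (log2 -0.98, SE 0.26, adjusted p = 0.0295) and the mesenchymal gene Prrx2 (log2 -0.89, SE 0.19, adjusted p = 0.0143) fell. Shox2 lost its call under 6 of 17 alternatives and Prrx2 under 5 of 17. Rax was measured on 2 of 3 wound arrays, and its difference was as small as -0.72 among the alternatives. Of a list of skeletal muscle and satellite cell markers, 6 of 12 were tested, 1 rose (Acta1, named after its value was seen) and 1 fell (Chrna1, likewise). The list's summed level, in units of each array's 75th percentile, was 0.99, 0.85 and 2.45 on the skin arrays. On the wound arrays it was 2.77, 2.33 and 10.6, higher within each design. Acta1 alone made up 2.22, 1.73 and 8.17 of the sums on wound replicates 1, 2 and 3. Without it the sums of the other 10 markers were 0.81, 0.71 and 1.83 on the skin arrays and 0.55, 0.60 and 2.42 on the wound arrays, lower in wound cells on design 026655 and higher on 028005. Myf5, Ckm and Myh1 were above background on no array. Myog, chosen after its values were seen, had processed signals of 35.0, 25.4 and 61.7 on the skin arrays and 54.9, 23.1 and 426 on the wound arrays, so it stood apart on wound replicate 3. The part of muscle cells in the values of Six4 and Pax7 was not tested.

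NKL and other ANTP class genes, the group that holds Dbx, Barx and Msx, had 1 of 24 higher (4.17%) and 6 lower (25%). Over all tested genes, 18.5% were higher and 15.6% lower. Dlx2, of the distal-less family, was at least 6.97-fold lower with the main processing (adjusted p = 0.000528) and above background on no wound array. Its log2 difference was as small as -1.61 among the alternatives. Vax2 (log2 -2.18, SE 0.57, adjusted p = 0.0284), Hmx1 (log2 -1.50, SE 0.23, adjusted p = 0.00414) and Dlx4 (log2 -1.06, SE 0.28, adjusted p = 0.0301) fell, and Barhl1 rose (log2 0.51, SE 0.14, adjusted p = 0.0309). Vax2 moved by -3.15 on design 026655 and -0.23 on 028005 and lost its call under 6 of 17 alternatives, Dlx4 under 9 of 16 and Barhl1 under 12 of 17. Dlx4 was measured on 2 of 3 wound arrays. LIM class genes had 2 of 8 higher (25%) and 1 lower (12.5%). Lhx2, a hair follicle stem cell factor, was measured on 2 of 3 wound arrays and fell (log2 -3.60, SE 0.30, adjusted p = 0.00039). Its difference was as small as -1.90 among the alternatives. Lhx8 (log2 3.63, SE 0.50, adjusted p = 0.0026) and Lmx1a (log2 2.98, SE 0.40, adjusted p = 0.00219), each measured on 2 of 3 skin arrays, rose. Among the alternatives the differences of Lhx8 and Lmx1a were as small as 2.12 and 1.53.

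POU, HNF, CUT, PROS and zinc finger class genes had 7 of 28 higher and 7 lower. Each was 25%, against 18.5% and 15.6% of all tested genes. The large zinc finger homeobox genes Zfhx3 (log2 2.34, SE 0.23, adjusted p = 0.000683) and Zfhx4 (log2 1.73, SE 0.17, adjusted p = 0.000697) rose, as did Tshz2 (log2 1.47, SE 0.18, adjusted p = 0.00149) and Pou2f2 (log2 1.34, SE 0.37, adjusted p = 0.0333). Zfhx2 (log2 -3.16, SE 0.37, adjusted p = 0.00133), Zhx3 (log2 -0.92, SE 0.16, adjusted p = 0.0066) and Pou3f1 (log2 -0.85, SE 0.19, adjusted p = 0.0156) fell. Pou2f2 was measured on 2 of 3 skin arrays. It lost its call under 8 of 16 alternatives and Pou3f1 under 3 of 17.

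Of 6 T-box genes that mark limb and dermal territories, Tbx2 (log2 2.61, SE 0.18, adjusted p = 0.000193) and Tbx3 (log2 2.53, SE 0.22, adjusted p = 0.000455) rose, and the forelimb gene Tbx5 (log2 -2.07, SE 0.24, adjusted p = 0.00134) and the dermal gene Tbx15 (log2 -1.22, SE 0.18, adjusted p = 0.00309) fell. Each direction held 33.3% of the T-box genes, against 18.5% of all tested genes higher and 15.6% lower. Tbx5 was measured on 2 of 3 wound arrays, and its difference was as small as -0.74 among the alternatives. Tbx18 was not called (log2 -0.15, SE 0.20, adjusted p = 0.621).

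**Figure D4:**
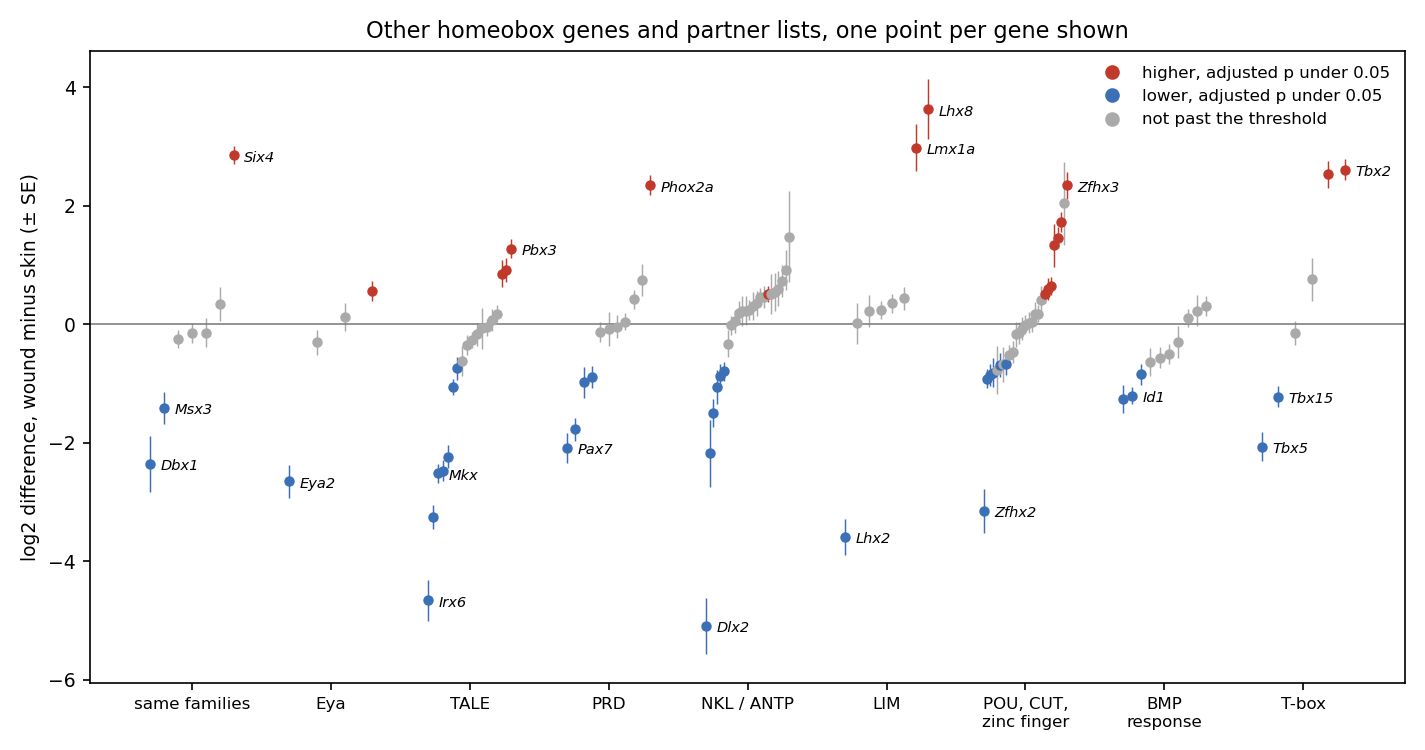
Log2 difference, wound minus skin, of tested genes of the homeobox classes and partner lists (points, estimate; bars, SE of the model on 3 arrays per group; red, higher and blue, lower at an adjusted p under 0.05). Six4 lies above 0 among relatives of the described genes, while Dbx1 and Msx3 lie below 0.

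Markers of other cells moved with the same contrast. For comparison, 18.5% of all tested genes rose and 15.6% fell. Keratinocyte markers fell for 9 of 10 members, with a summed level of 19.1 to 43.2 on skin arrays and 4.22 to 10.3 on wound arrays, and 2 of them, Krt1 and Cdh1, were above background on no wound array. Dermal papilla markers fell for 5 of 8, with summed levels of 10.68 to 30.0 and 6.00 to 13.9. Mural markers rose for 7 of 8, with summed levels of 8.34 to 17.6 and 64.4 to 170. Schwann cell markers fell for 4 of 6 tested, and melanocyte markers for 1 of 3. Adipocyte markers rose for 1 of 2 tested, endothelial markers for 2 of 7, and leukocyte markers rose for 1 and fell for 2 of 9. Despite the sort, every leukocyte marker was above background on some skin array and some wound array. So was every endothelial marker except Tie1, which was above background on no wound array. The part of these cells in the values of any homeobox gene was not tested.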

How the data were processed

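Per the file headers, the authors extracted 1-colour intensity values with Agilent Feature Extraction 10.7.3.1 (design files of build mm9). The authors' second file, which the labels say was built in GeneSpring 14.5 to combine the array types, holds 1 value per gene and array. These deposited values, whose scale is not stated, were taken as log2 values. Their wound minus skin differences matched scanner values averaged over each gene's probes (slopes 1, 1 and 0.973 in replicates 1, 2 and 3). The deposited values were also taken as centred by the authors on the genes of each design, which such differences cannot show. The column medians are -0.21, -0.25 and -0.25 (skin) and -0.28, -0.27 and -0.23 (wound).

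The labels' design text names a human array, while the organism label and the probes' accessions are mouse. Control and outlier spots were dropped, spots of a probe averaged, and log2 processed signals set against the array's 75th percentile over probes. Probes were named through the deposited table or their RefSeq accession (30646 of 39429 on design 026655, 30647 of 55680 on 028005), and the brightest probe per gene and design was used. Genes well above background on all arrays of a group were fitted with limma 3.58.1 (R 4.3.3; tested on simulated data) with array design, which is also the slide, as a fixed term. Adjusted p is Benjamini-Hochberg over all 16686 genes. The files have no mean spot signal, so normexp used the median signal and its local background. Alternatives were scaling, background, probe, filter, pairing and left-out arrays. Members and lists were chosen with earlier results of these data known. Named by rule were, per list, the called genes with the 4 largest increases and decreases, and the 2 nearest genes of a member. Some results of these lists are not reported here. The planned comparison of homeodomain sequences was not made. Tables and figures used Python 3.11.15, pandas 2.3.3 and matplotlib 3.10.9.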

Additional observations from a re-analysis of the deposited data

How the results depend on the processing

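Dbx2, Pitx1, Six2 and Meox1 stayed above 0 and Msx2 below 0 in each alternative that gave a value, with log2 ranges of 3.95 to 7.45, 1.78 to 5.80, 1.68 to 3.03, 0.44 to 0.91 and -0.74 to -0.41, while Meox2 ranged from -0.09 to 0.21 and Msx1 from 0.03 to 0.32. Of 43 named genes of the lists, 20 kept their call under each alternative, 10 lost it only with no array design term, and none changed sign. All genes gave 3092 higher and 2595 lower calls; with no array design term 847 and 905 were called, at an adjusted p under 0.01 1701 and 1488, and with 1 array left out 2018 to 2590 and 1731 to 2428. The 17 higher and 28 lower other homeobox genes became 7 and 12 with no array design term, 9 and 16 at an adjusted p under 0.01, 10 to 14 and 18 to 25 with 1 array left out, and 18 lower with detection on all 6 arrays, where fewer genes were tested. Leaving out either array of design 028005 leaves the fit of design 026655 alone, which is itself another alternative. The tallies of alternatives given for single genes count this same fit each time. With the replicate number as a block, 16 and 25 of them, and 3018 and 2573 of all genes, were called; the numbers are not stated to pair samples, and the deviations of replicates 1 and 2 correlated at 0.15 across genes between groups. The block ended the calls of Dlx4, Eya4, Pou2f2 and Vax2 (adjusted p = 0.0511, 0.0655, 0.0578 and 0.0534). The cause of these shifts was not tested otherwise. Signal near background limits the size given for Dbx2 and Pitx1.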
